A study of Mus musculus with 2 samples.

Results

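General capillary endothelial cells (gCap cells) of the mouse lung were studied 1 week after bleomycin injury. They were chosen by a rule on detected genes: at least 2 of *Pecam1*, *Cdh5*, *Cldn5* and *Calcrl*, 1 or more unique molecular identifiers (UMIs) of *Gpihbp1* or *Plvap*, 0 UMIs of *Car4*, *Ednrb*, *Gja5*, *Vwf*, *Prox1*, *Ptprc*, *Col1a2* and *Epcam*, and fewer than 3 of *Mki67*, *Top2a*, *Birc5*, *Cenpf* and *Ube2c*. Of 45824 kept cells in both libraries, 2640 met the rule. They were 2477 of 30187 *Pclaf* WT cells and 163 of 15637 *Pclaf* KO cells. Since the rule is set on measured values, the levels of these 19 genes are a description of the choice and support nothing.

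The series holds 2 10x Genomics single-cell RNA libraries, 1 from *Pclaf* WT and 1 from *Pclaf* KO mice, both taken after intratracheal bleomycin (1.35 U/kg in the series description) at an age of 8 to 10 weeks. *Pclaf* encodes a PCNA-binding factor, and the study describes its *Pclaf* KO strain as a germline knockout. Neither library was left without bleomycin, so no uninjured level is known, and how many mice were pooled is not given in the sources used here. The methods name male mice, yet both libraries held *Xist* and Y-linked *Ddx3y* UMIs, at 220 and 89.7 UMIs per 1000000 (CPM) in WT gCap cells and 421 and 49.8 CPM in KO gCap cells. The sort was for CD31-negative, CD45-negative, EPCAM-positive epithelial cells. A gate of that kind would remove the cells described here, so their number in each library cannot be read as their number in the lung.

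Lung capillaries are made of intermingled endothelial cells. General capillary cells carry GPIHBP1, which holds lipoprotein lipase on the vessel wall, and PLVAP, which forms the diaphragms of caveolae and fenestrae. They are known as a progenitor of the capillary bed and a regulator of vessel tone. Aerocytes, the large *Car4*-positive capillary cells, lie against the air space and serve gas exchange.

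Promoter sequence is shown for 3 endothelial genes expressed in these cells but not particular to them, as a view of the DNA upstream of endothelial genes. ETS-family factors such as ERG and FLI1 act on many endothelial promoters, and the core letters AGGAAG, read on both strands, were searched in the 250 bases before the RefSeq start sites (GRCm38.p6). *Eng*, the TGF-beta co-receptor endoglin, lies on chr2:32646345-32646594 (+ strand), *Cldn5*, a tight junction claudin, on chr16:18776597-18776846 (+ strand), and *Tek*, the angiopoietin receptor TIE2, on chr4:94739039-94739288 (+ strand). Capitals mark the motif on either strand:
Eng: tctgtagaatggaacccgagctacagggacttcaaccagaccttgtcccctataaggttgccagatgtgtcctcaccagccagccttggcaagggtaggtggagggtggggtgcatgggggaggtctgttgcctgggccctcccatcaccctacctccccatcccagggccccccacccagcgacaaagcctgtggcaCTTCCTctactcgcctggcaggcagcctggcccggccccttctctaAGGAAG
Cldn5: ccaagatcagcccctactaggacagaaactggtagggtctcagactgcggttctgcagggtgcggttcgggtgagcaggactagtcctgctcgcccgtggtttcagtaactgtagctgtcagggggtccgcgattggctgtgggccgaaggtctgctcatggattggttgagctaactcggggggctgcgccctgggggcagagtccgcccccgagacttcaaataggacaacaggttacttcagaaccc
Tek: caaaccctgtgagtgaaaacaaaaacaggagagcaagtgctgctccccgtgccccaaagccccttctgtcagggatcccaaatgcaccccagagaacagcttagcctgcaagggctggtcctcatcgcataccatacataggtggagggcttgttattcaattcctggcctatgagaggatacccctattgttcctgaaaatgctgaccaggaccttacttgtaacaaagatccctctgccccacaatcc
The motif was found 2 times in the *Eng* window and 0 times in the other 2. It stood in 7 of the 8 pan-endothelial list genes with a window, in 2 of 7 general capillary list genes, in 3 of 12 aerocyte list genes, in 7 of 13 epithelial list genes and in 29.2% of all 27025 windows. These are matches of letters, not measured binding.

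A member held a median of 1570 UMIs and 992 genes in WT and 1824 UMIs and 1115 genes in KO, with mitochondrial medians of 4.97% and 3.33%. The sums over members were 4506306 UMIs in WT and 401280 in KO, so KO values carry the wider error. gCap cells made up 8.21% of kept WT cells (95% exact binomial interval 7.90 to 8.52) and 1.04% of kept KO cells (0.889 to 1.21). Among cells of the shared endothelial gate, which asks for the same endothelial genes and leaves out immune, epithelial, fibroblast, lymphatic and cycling cells, they made up 31.2% in WT (30.2 to 32.2) and 37.7% in KO (33.1 to 42.5). At least 2 of the 4 endothelial genes were seen in 12323 kept WT and 616 kept KO cells, so endothelial cells as a whole were few in the KO library. With 1 library per genotype there is no test between genotypes, and every interval covers counting error only. No barcode was shared between the WT and KO members, while 138 were shared among the kept cells.

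Members close to the limits of the rule were frequent. Exactly 2 of the 4 endothelial genes were seen in 443 WT and 27 KO members, and all 4 in 1467 and 106. A further 397 WT and 26 KO cells had only 1 of them and met all else. The sum of *Gpihbp1* and *Plvap* was a single UMI in 732 WT and 19 KO members. *Vwf* kept out most cells among the single excluded genes, with 2004 WT and 91 KO cells that met every other condition, followed by *Car4* with 533 and 40. *Ptprc* alone kept out 522 WT and 0 KO cells. A single UMI in the 8 excluded genes was all that separated 1567 WT and 77 KO cells from membership.

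Endothelial and capillary genes outside the rule were present in the members, as the label asks. *Ptprb*, the vascular phosphatase VE-PTP, was the most abundant gene of the general capillary list, at 2475 CPM (WT) and 1904 CPM (KO). *Cd93*, a membrane glycoprotein of endothelium, was at 1617 and 1134 CPM, *Tek* at 879 and 745 CPM, and *Kit*, the receptor of stem cell factor, at 818 and 568 CPM. *Aplnr*, the apelin receptor that marks this class, was lower, at 170 CPM (WT) and 132 CPM (KO), and had a UMI in 21.4% and 19.6% of members against 0.343% and 0.417% of *Col1a2*-positive fibroblasts, which should lack it. Of the defining markers of other vessels, *Ackr1* of veins had 2 UMIs in WT and 0 in KO members, *Fibin* of aerocytes 33 and 1, and *Dkk2* of arteries 0 and 0. Other genes of these lists were well detected, since *Mgp* led the arterial list (1084 and 399 CPM), *Nrp1* the aerocyte list (548 and 578 CPM) and *Lyve1* the venous list (510 and 419 CPM) in WT. *Mgp* was higher over all kept cells, at 3964 CPM (WT) and 5585 CPM (KO). The gate genes themselves were at 959 (*Gpihbp1*), 994 (*Plvap*), 1369 (*Pecam1*) and 1778 CPM (*Cdh5*) in WT, and at 1089, 1221, 1087 and 1283 CPM in KO.

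**Figure D1:**
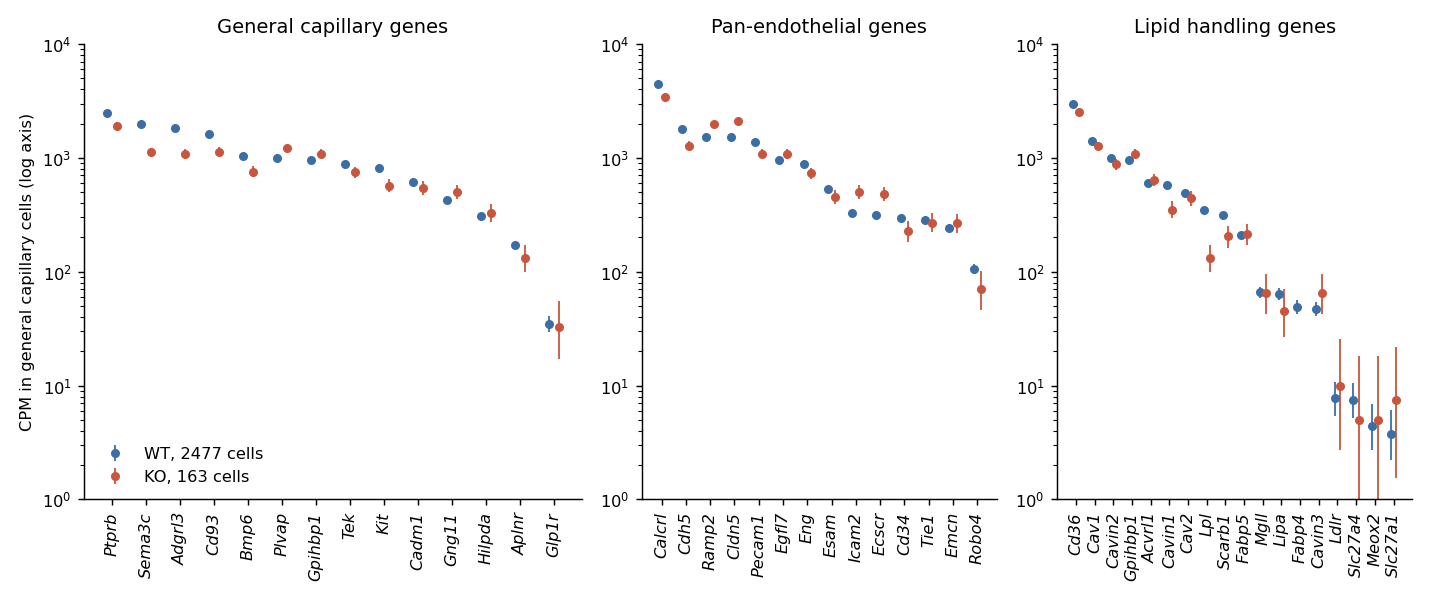
Levels (CPM, log axis) of general capillary, pan-endothelial and lipid handling genes in gCap cells of the WT (blue, 2477 cells) and KO library (red, 163 cells); bars are exact Poisson 95% intervals, and genes with under 20 UMIs in all are left out. Most genes lie near each other in both libraries; *Lpl* was at 345 CPM (WT) and 132 CPM (KO), and *Fabp4* has no KO point because it had 0 UMIs there.

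The members carried products that general capillary cells are known for, and the neighbouring endothelial cells held about as much of them. In WT gCap cells, aerocytes and *Vwf*-positive endothelial cells, the lipid handling list summed to 9099, 8950 and 8909 CPM. The tone and haemostasis list summed to 11624, 12215 and 12005 CPM, and the transcription factor list to 10191, 9726 and 10312 CPM. Of the lipid handling list, the fatty acid transporter *Cd36* was the most abundant gene, at 2971 CPM (WT) and 2532 CPM (KO) and the caveolar coat gene *Cav1* at 1392 and 1276 CPM. The transporters *Slc27a1* (17 and 3 UMIs) and *Slc27a4* (34 and 2) were near the floor. Among receptors of vasoactive peptides, *Calcrl* (adrenomedullin and CGRP, a gate gene) was at 4489 and 3404 CPM and its partner *Ramp2* at 1523 and 1969 CPM. *Ace*, which makes angiotensin II, was at 1043 and 775 CPM, and *Thbd*, the thrombomodulin that curbs clotting, at 1040 and 688 CPM. The hypoxia-responsive factor *Epas1* led the transcription factors, at 3709 and 2487 CPM, followed by *Foxp1* at 1247 and 912 CPM. *Erg* was at 202 and 182 CPM and *Foxf1*, a factor of lung endothelium, at 373 and 244 CPM. The secreted guidance factor *Sema3c* was at 2000 and 1121 CPM and *Bmp6* at 1029 and 758 CPM. Genes of leukocyte capture differed in level. *Icam1*, a ligand of leukocyte integrins, was at 107 and 130 CPM, while the selectins *Sele* (11 UMIs in WT, 6 in KO) and *Selp* (14 and 0) and the chemokine *Cxcl1* (6 and 0) were near the floor.

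Within each library, gCap cells were set beside cells of the same endothelial gate with *Car4* or *Ednrb* (aerocyte class, 1215 WT and 82 KO cells), with *Vwf* (2254 and 100) or with *Gja5* (arterial class, 66 and 2). These classes are cut by the same genes, so the values describe the cut. "Past 2-fold" means a ratio of at least 2 with a counting interval that does not hold 1. Against aerocytes, 155 of 11533 genes (1.34%) were past 2-fold higher and 311 (2.70%) lower in WT gCap cells, and 206 of 5466 (3.77%) higher and 244 (4.46%) lower in KO gCap cells. Against *Vwf*-positive cells the shares were 1.04% higher and 2.34% lower in WT, and 3.35% higher and 3.44% lower in KO. Epithelial markers moved in these KO comparisons. Against KO aerocytes, 11 of 16 were past 2-fold higher and 3 lower (median log2 ratio 1.59). Against KO *Vwf*-positive cells, 13 of 16 were higher and 0 lower (median 2.40). The WT medians were -0.41 and -0.76. The part of epithelial RNA in the other KO ratios was not tested. Of the 311 genes lower than in WT aerocytes, 128 had enough UMIs in KO, and 122 of these were lower there too, 92 of them past 2-fold. Of the 155 higher than in WT aerocytes 11 had enough KO UMIs (10 on the same side, 6 past 2-fold). Against *Vwf*-positive cells it was 79 of 284 lower genes (62 on the same side, 58 past 2-fold) and 1 of 126 higher genes (on the same side, not past 2-fold). Enough UMIs means at least 20 summed over the 2 classes compared. In the small KO classes a gene passes mainly through the class where it is high. The same-side counts are thus largely set by this filter and are no separate support from the KO library.

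Genes of the aerocyte list were mostly lower in gCap cells than in aerocytes, classes that are cut by *Car4* and *Ednrb*. Leaving out the rule's genes, 11 of 12 listed genes were past 2-fold lower in WT gCap cells than in WT aerocytes, and 10 of 10 in KO. The KO genes counted are those with at least 20 UMIs over both classes. Genes rare in KO gCap cells pass only through aerocytes, so the KO count is no separate support. *Fibin* had a log2 ratio of -5.54 (-6.09 to -5.04) in WT and -7.70 (-13.02 to -5.20) in KO. For *Apln*, the ligand of the receptor on gCap cells, it was -3.79 (-4.27 to -3.33) and -5.37 (-8.45 to -3.46). *Kdr*, the main VEGF receptor, was at 299 CPM in WT gCap cells and 1244 CPM in WT aerocytes, with log2 ratios of -2.05 (-2.15 to -1.96) in WT and -2.30 (-2.62 to -1.99) in KO. Its ligand *Vegfa* lay on the opposite side and was higher in gCap cells by 0.80 (0.66 to 0.94) in WT and 0.92 (0.35 to 1.51) in KO on the log2 scale.

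General capillary genes set gCap cells apart from aerocytes by a smaller amount. The list's median log2 ratio was 0.64 in WT and 0.62 in KO, with 0 of 12 and 3 of 11 genes past 2-fold higher. *Kit* was higher by 0.82 (0.73 to 0.91) in WT and 1.16 (0.77 to 1.56) in KO, and *Bmp6* by 0.79 (0.71 to 0.87) and 1.23 (0.89 to 1.58). *Lpl*, the lipase that GPIHBP1 binds, was higher by 0.84 (0.70 to 0.98) and 1.68 (0.75 to 2.72). Lists for vessel growth and tone went both ways against aerocytes. Their counts stand beside 1.34% higher and 2.70% lower of all tested genes in WT, and 3.77% and 4.46% in KO. Of 17 VEGF and angiopoietin genes in WT, 2 were past 2-fold higher and 2 lower, and of 13 in KO 1 and 3. Of 18 tone and haemostasis genes in WT, 1 was higher and 2 lower, and of 11 in KO 2 and 1. Of 20 angiocrine genes in WT, 3 were higher and 4 lower, and of 14 in KO 4 and 3. Some low genes were among the higher ones. *Edn1*, endothelin 1, was higher by 1.10 (0.90 to 1.31) in WT and 1.68 (0.89 to 2.57) in KO, *Hgf* by 1.13 (0.81 to 1.45) and 2.59 (0.88 to 4.96), and *Esm1*, a marker of growing vessels, by 1.91 (1.25 to 2.64) and 1.99 (0.43 to 3.99).

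Cells with *Vwf* were close to gCap cells in capillary genes and apart from them in venous genes. The median log2 ratio of the general capillary list, gCap over *Vwf*-positive cells, was 0.18 in WT and 0.23 in KO, with 0 of 12 genes past 2-fold in each. *Plvap*, a gate gene, was at 994 CPM in gCap and 963 CPM in *Vwf*-positive WT cells. Of the venous list, 10 of 13 genes in WT and 10 of 12 in KO were past 2-fold lower in gCap cells. The same filter on summed UMIs applies, so the KO count is no separate support. The noradrenaline transporter *Slc6a2* was at 8.21 CPM in WT gCap and 548 CPM in WT *Vwf*-positive cells, and at 2.49 and 602 CPM in KO. *Vegfc*, a ligand of lymphatic growth, had log2 ratios of -1.92 (-2.08 to -1.76) and -2.51 (-3.09 to -1.96). Whether the *Vwf*-positive class mixes veins with capillary cells was not tested.

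**Figure D2:**
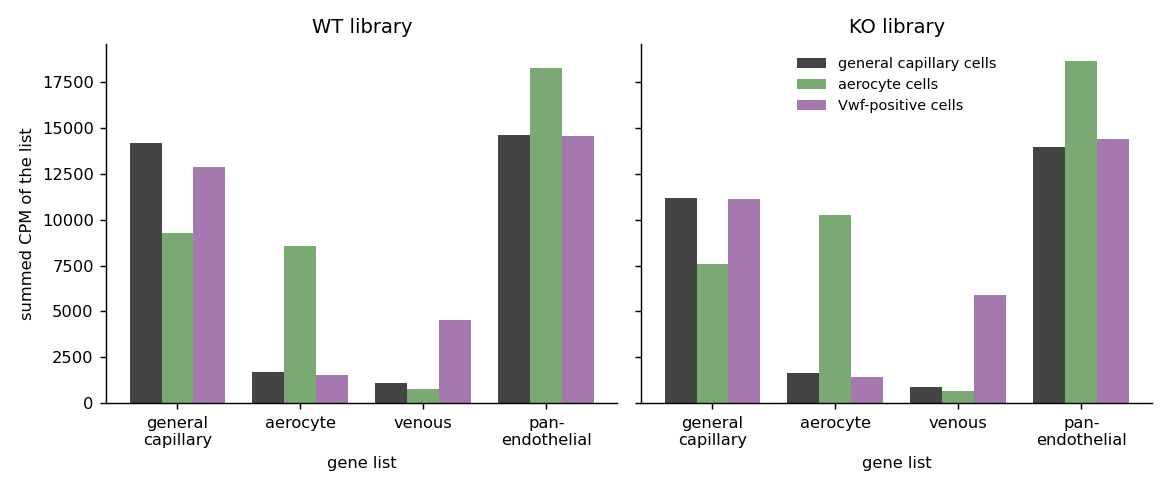
Summed CPM of 4 gene lists (x axis) in gCap (dark), aerocyte (green) and *Vwf*-positive cells (purple) of the WT (left) and KO library (right); the lists include genes of the rule, and bars carry no replicate error. General capillary genes summed to 14155 CPM in WT gCap, 9268 CPM in aerocyte and 12884 CPM in *Vwf*-positive cells, while the aerocyte list summed to 1698 CPM in WT gCap and 8536 CPM in WT aerocyte cells.

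The 15 genes with the highest ratio over all 3 other classes in WT were low, with 54 UMIs for *Hcst* and at most 225 UMIs (49.9 CPM), for *Ccl17*. Most are known from blood cells, such as the chemokines *Ccl17*, *Ccl22* and *Ccl5*, the CSF1 receptor *Csf1r* and *Mir142hg*. *Ccl17* and *Ccl22* (117 WT UMIs) had 0 UMIs in KO members. All but *Ccl22* of these 15 were lower in WT gCap cells than over all kept WT cells. Only 3 of the 15 had 10 or more UMIs in KO members: *Il18r1*, a cytokine receptor chain, at 12.4 CPM (WT) and 24.9 CPM (KO), *Hdc*, which makes histamine, at 22.4 and 34.9 CPM, and the zinc transporter *Slc39a8* at 12.2 and 42.4 CPM. The KO UMIs of these 3 genes came mostly from members with over 2% of their UMIs in epithelial or immune markers. Without these members 0 UMIs of *Il18r1*, 2 of *Hdc* and 2 of *Slc39a8* were left.

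Variation among the members was read after thinning to 1000 UMIs a cell (1782 WT and 139 KO members, with 695 and 24 shallower ones left out). In WT, 3749 genes had a mean of at least 0.05 UMIs. Most of these varied close to sampling, with a median variance over the mean of 1.05. The most variable genes were *Scgb1a1*, the club cell secretoglobin, with a variance 202 times the mean, and *Sftpc*, surfactant protein C of AT2 cells, with 84.4. Next came *Scgb3a2* (46.6), *S100a9* (46.6) and *S100a8* (30.8), the last 2 known from neutrophils. Of all *Scgb1a1* UMIs, 32.9% in WT and 77.0% in KO came from 1 member. *Sftpc* was more spread, with 16.2% and 14.2% in the top member and UMIs in 710 WT and 162 KO members. *Mgp*, a matrix protein found in vessels and fibroblasts, had 15.3 in WT and 2.01 in KO members.

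*Gpihbp1* and *Plvap* were detected together in 49.4% of WT and 66.3% of KO members. *Gpihbp1* without *Plvap* was seen in 638 WT and 25 KO members, and *Plvap* without *Gpihbp1* in 615 and 30. Members with both were deeper, at medians of 1924 UMIs in WT and 2066 in KO, against 1070 and 1266 with *Gpihbp1* only and 1243 and 1195 with *Plvap* only. Thinned to 1000 UMIs, *Gpihbp1* was seen in 57.2% of WT members (54.8 to 59.5) and 64.0% of KO members (55.5 to 72.0), and *Plvap* in 59.5% (57.2 to 61.8) and 75.5% (67.5 to 82.4). *Plvap*-only members had more *Esm1* than *Gpihbp1*-only members, 43.7 against 13.4 CPM in WT (log2 ratio 1.71, 0.75 to 2.77) and 10 against 3 UMIs in KO (1.78, -0.17 to 4.28). *Adgrl3*, an adhesion receptor, was higher in *Plvap*-only members by 0.44 (0.32 to 0.55) in WT and 2.96 (2.05 to 4.02) in KO, and *Lyve1*, a hyaluronan receptor, by 0.65 (0.43 to 0.88) and 2.78 (1.03 to 5.18). *Cxcl12* was lower in *Plvap*-only members, by -0.56 (-0.77 to -0.35) in WT and -0.67 (-1.74 to 0.35) in KO. The KO ratios rest on 25 *Gpihbp1*-only members with 11 UMIs of *Adgrl3* and 3 of *Lyve1*. *Sftpc* moved with this split too, at 2066 CPM in *Gpihbp1*-only and 1077 CPM in *Plvap*-only WT members, and at 52431 and 18797 CPM in KO. Immune genes went both ways in WT, with *C1qa* at 311 and 157 CPM and *Igkc* at 50.2 and 106 CPM. Some broad endothelial genes were higher in *Plvap*-only KO members, with *Acvrl1* at 1.63 (0.61 to 2.77) and *Cav1* at 1.24 (0.62 to 1.89). In WT they were at -0.094 (-0.28 to 0.095) and 0.018 (-0.099 to 0.14). The part of *Sftpc* and immune RNA in the other values was not tested.

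The targeted gene was checked first between genotypes. *Pclaf* had 59 UMIs in WT members (13.1 CPM, exact Poisson 95% interval 9.97 to 16.9) and 0 in KO members, where up to 9.19 CPM cannot be told from 0. With KO set to a floor of 3 UMIs over all members (7.48 CPM), the log2 ratio was -0.81 or lower. The interval's limit of 9.19 CPM gives a weaker bound. *Pclaf* was seen in 1.94% of WT members, and in 3.00% of WT and 0.909% of KO fibroblasts. Over all kept KO cells it stood at 5.19 CPM. *Pclaf* is known as a gene of proliferating cells, and the gate leaves out cells with 3 or more of the 5 cycling genes.

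RNA of other cell types was present in the members and differed between the libraries, as these values show before any other gene is compared. The 17 epithelial markers summed to 3025 CPM (WT) and 40672 CPM (KO members), with *Sftpc* the most abundant (1200 and 24539 CPM) and *Epcam* at 0 by the rule. Their levels over all kept cells were 16467 CPM (WT) and 162658 CPM (KO). In the median member their share of UMIs was 0.0726% (WT) and 0.587% (KO), while 22 WT and 19 KO members held over 2% and carried 68.0% and 90.4% of all these UMIs. *Sftpc* had a UMI in 28.7% of WT and 99.4% of KO members, beside 34.4% and 98.9% of fibroblasts, which do not make it. The 18 immune markers summed to 2876 CPM (WT) and 3484 CPM (KO), led by *Lyz2* (1596 and 3382 CPM), which AT2 cells also express. Without the members over 2%, the sums were 1539 and 619 CPM and *Lyz2* was at 727 and 515 CPM, lower in KO. *Ptprc* was at 0 by the rule, and *S100a8*, *Igkc* and *Ccl5* had 241, 219 and 103 UMIs (WT) and 0 (KO). Of the 16 mesenchymal markers, at 476 CPM (WT) and 232 CPM (KO), *Inmt* led in WT (116 CPM) and *Gpx3* in KO (47.3 CPM), and *Dcn*, *Pdgfra* and *Pdgfrb* were at 0 in KO. In WT, 37 members and in KO 3 held over 2% of their UMIs in immune markers, and 3 and 0 in mesenchymal markers.

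**Figure D3:**
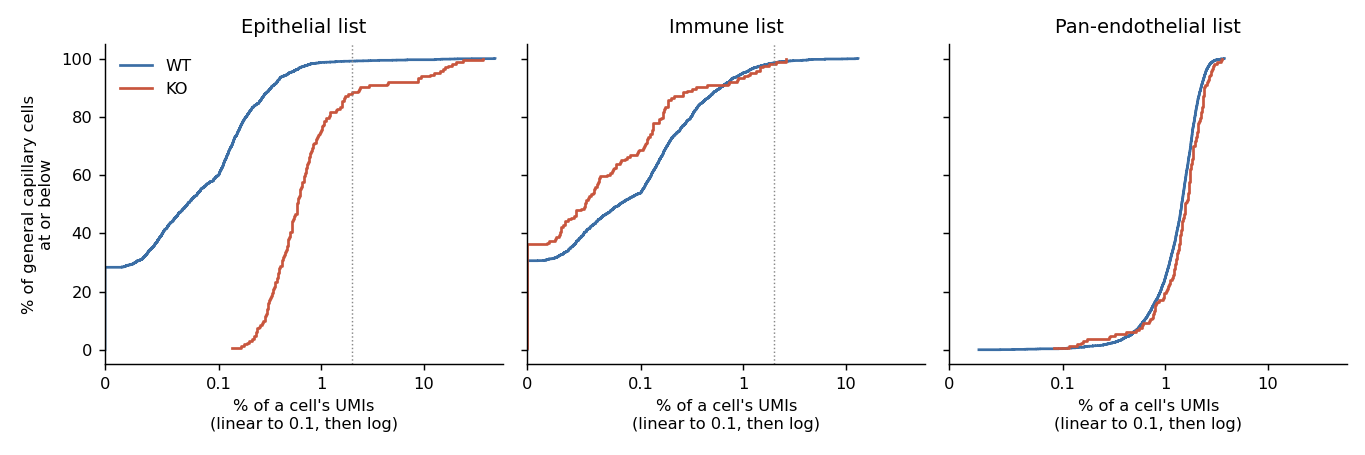
Share of gCap cells (y axis, %) at or below a given share of their own UMIs (x axis, %, linear up to 0.1 and then log) in epithelial, immune and pan-endothelial list genes, for WT (blue) and KO (red); the dotted line marks 2%. The KO curve for epithelial genes lies to the right of WT through most of its length (medians 0.587% and 0.0726%), while the pan-endothelial medians were 1.57% in KO and 1.44% in WT.

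Between genotypes, 10757 genes had at least 20 UMIs over the members of both libraries. Past 2-fold, 399 (3.71%) were higher and 388 (3.61%) lower in KO, around a median log2 ratio of -0.14 over all of them. Without the 57 WT and 19 KO members in which the epithelial or the immune list held over 2% of UMIs, an alternative chosen after the values were seen, 217 of 10535 genes (2.06%) were higher and 260 (2.47%) lower, and 127 and 192 of these were the same genes. Of the 399 higher genes, 260 had a lower level in KO gCap cells than over all kept KO cells, as did 41.5% of all tested genes. Of the 16 tested epithelial markers 14 were higher (median log2 ratio 3.39), of 15 immune markers 1 was higher and 13 lower (median -3.55), of 14 mesenchymal markers 1 was higher and 4 lower (median -1.19), and of 6 blood markers 2 were lower (median -0.39). Leaving out the members over 2%, 11 epithelial markers were higher and 1 lower (median 2.10), 0 immune markers higher and 10 lower (median -2.81), and 1 mesenchymal marker higher and 1 lower (median -0.93). These counts describe 2 libraries and are not counts of genes that respond to *Pclaf*.

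The highest ratios were mostly genes of AT2 cells. *Sftpa1*, *Sftpb*, *Sftpc*, *Slc34a2*, *Lamp3*, *Muc1*, *Lgi3*, *Il33*, *Ank3* and *Ppp1r14c* had log2 ratios of 4.19 to 4.79, and each was lower in KO members than over all kept KO cells. *Il33*, an alarmin cytokine, had 17 UMIs in WT and 42 in KO members, and 6 and 5 without the members over 2%. *Sftpc* kept a log2 ratio of 3.19 (3.05 to 3.33) without them. The lowest ratios included genes known from macrophages and B cells. *Chil3*, a chitinase-like protein of macrophages, had 323 UMIs in WT and 0 in KO, *Cotl1* 248 and 0, *Ccl17* 225 and 0, *Ighm* 145 and 0 and *Trem2* 147 and 0. With KO at 3 UMIs, the log2 ratio of *Chil3* was -3.26 or lower. *Fabp4*, a fatty acid carrier of capillaries and macrophages, was also among the 10 lowest, with 221 and 0 UMIs. Aerocytes likewise had 123 UMIs of *Fabp4* in WT and 0 in KO. Over all kept cells it was at 61.3 CPM (WT) and 5.47 CPM (KO), while *Vwf*-positive cells had it at 62.9 CPM (WT) and 111 CPM (KO).

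Genes at or above the level of all kept cells in the library where they were higher gave smaller ratios. In KO these were led by the long RNA *2610020C07Rik* (8.88 to 32.4 CPM) and *Isg15*, the ubiquitin-like interferon product. *Isg15* was at 24.9 CPM in WT (20.5 to 29.9) and 79.7 CPM in KO (54.5 to 113), a log2 ratio of 1.68 (1.07 to 2.26), and of 1.90 (1.25 to 2.50) without the members over 2%. It was also higher in KO aerocytes (1.95, 1.20 to 2.64) and *Vwf*-positive cells (1.80, 1.10 to 2.43), and the fibroblast ratio of *Isg15* was 0.054 (-0.20 to 0.32). The histone gene *Hist1h4d* went the same way, at 1.66 (1.10 to 2.19) in gCap cells, 1.89 (1.24 to 2.51) in aerocytes and 1.95 (1.33 to 2.53) in *Vwf*-positive cells, and at 0.78 (0.52 to 1.04) in fibroblasts. *Gm26632*, *Ocel1*, *Sdf2l1* (an endoplasmic reticulum chaperone partner), *4930444A19Rik*, *Ppil1*, *Rnd3* and *Slc25a27* had log2 ratios of 1.57 to 1.67, each on 14 to 28 KO UMIs. In aerocytes, *Ppil1*, *Rnd3* and *Slc25a27* were at -1.77 (-7.11 to 0.80), -1.45 (-6.80 to 1.15) and -0.22 (-2.57 to 1.44), on 1 to 3 KO UMIs. The others were at 0.43 to 1.23 there, and the intervals of *Sdf2l1* and *4930444A19Rik* included no change. In *Vwf*-positive cells *Slc25a27* was at -0.35 (-2.66 to 1.26) and the others at 0.44 to 0.72, each with an interval that included no change. In fibroblasts *Ocel1* was at 1.26 (0.93 to 1.61) and the others at -0.20 to 0.49. The 3 endothelial classes come from the same 2 libraries, so likeness between them is no replicate.

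On the lower side, *Tmem221* was at 29.1 CPM in WT members (24.3 to 34.5), 16.4 CPM in WT aerocytes, 18.7 CPM in WT *Vwf*-positive cells and 6.36 CPM over all kept WT cells. It had 0 UMIs in KO members, a log2 ratio of -1.96 or lower at the floor of 3 UMIs. The ratio of *Tmem221* was -2.25 (-7.59 to 0.29) in aerocytes and -2.64 (-7.96 to -0.14) in *Vwf*-positive cells, each on 1 KO UMI, while fibroblasts had 2 WT and 15 KO UMIs. *Endod1* had 134 WT and 1 KO UMI (-3.58, -8.89 to -1.07), while *Endod1* was at -0.22 in aerocytes (interval up to 0.48) and -0.60 (-2.06 to 0.56) in *Vwf*-positive cells. The others were *Ccl22*, *Gtpbp3*, *Cdc25a*, *Dnajc17*, *Fam217b*, *Rundc1*, *Kdm1b* and *Ccdc77*, with 54 to 117 UMIs in WT and 0 in KO. At the floor, 6 of these 8 did not reach 2-fold (log2 ratios of -0.95 to -0.68 or lower). The upper limits of their intervals ran from -0.61 to -0.33. Whether these 6 were lower by 2-fold in KO could not be told at this depth.

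By function, most endothelial lists had medians slightly below 0 and few genes past 2-fold. Each list count stands beside 3.71% higher and 3.61% lower of all tested genes and their median of -0.14, and nothing particular to a list is read from 1 or 2 genes. Of 14 tested general capillary genes, 0 were past 2-fold in either direction (median -0.30), and of 14 pan-endothelial genes 0 (median -0.16). Among the former, *Sema3c* had the lowest ratio, at -0.83 (-0.97 to -0.70), followed by *Adgrl3* at -0.76 (-0.91 to -0.62) and *Kit* at -0.52 (-0.72 to -0.33), which without the members over 2% was at -0.27 (-0.48 to -0.071). *Plvap*, a gate gene, was at 0.30 (0.16 to 0.43). Within the pan-endothelial list, *Icam2* (0.62, 0.40 to 0.83) and *Ecscr* (0.62, 0.39 to 0.84) lay above 0 and *Cdh5* (-0.47, -0.60 to -0.34) below. Without the members over 2% the medians of the lists were -0.097 and 0.076. There *Icam2* was at 0.81 (0.58 to 1.03), *Ecscr* at 0.80 (0.56 to 1.03) and *Cdh5* at -0.23 (-0.37 to -0.096).

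**Figure D4:**
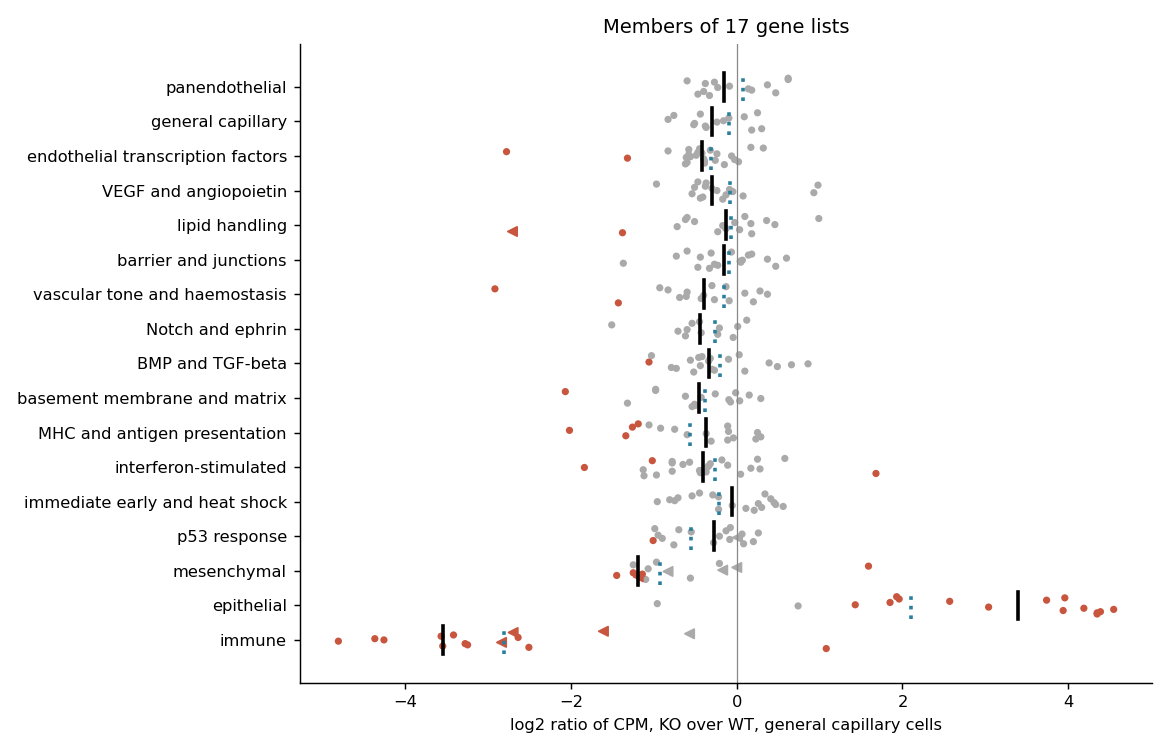
Log2 ratio of CPM (x axis, KO over WT) in gCap cells for each tested member of 17 gene lists (y axis). Red points are past 2-fold with an interval that does not hold 0, grey ones are not, left-pointing triangles have 0 KO UMIs and stand at the 3-UMI bound, black lines are list medians and dotted lines the medians without members over 2% epithelial or immune UMIs. Endothelial lists lie near 0 (general capillary median -0.30), the epithelial list at 3.39 and the immune list at -3.55.

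In the transcription factor list, 2 of 25 genes were past 2-fold lower in KO and 0 higher (median -0.42). *Klf4*, a factor that responds to shear stress, was at 311 CPM in WT (295 to 328) and 125 CPM in KO (92.5 to 164), a log2 ratio of -1.32 (-1.76 to -0.91), and of -1.25 (-1.74 to -0.81) without the members over 2%. The related *Klf2* was at -0.40 (-0.66 to -0.16), and at -0.20 (-0.46 to 0.056) without the members over 2%. *Nr2f2*, the venous factor COUP-TFII, had 154 and 2 UMIs. The lipid list had 2 of 18 genes past 2-fold lower, *Fabp4* and *Lpl* (median -0.13). *Fabp5* was at 0.034 (-0.30 to 0.35) and joined them without the members over 2%, at -1.67 (-2.63 to -0.86). *Lpl* was at 345 CPM in WT (328 to 362) and 132 CPM in KO (98.9 to 173), and its ratio of -1.38 (-1.81 to -0.99) was -1.15 (-1.60 to -0.73) without the members over 2%. Its binding partner *Gpihbp1*, a gate gene, was at 0.18 (0.039 to 0.33). *Lpl* is also made by fibroblasts and macrophages, and 25.6% of WT and 29.7% of KO fibroblasts had a UMI, beside 35.0% and 19.0% of members. Its source in the members was not tested.

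The signalling lists held few genes past 2-fold. Of 17 VEGF and angiopoietin genes, 0 were past 2-fold (median -0.30), with *Kdr* at -0.17 (-0.46 to 0.12) and *Flt1* at -0.44 (-0.61 to -0.27). Without the members over 2%, *Kdr* was at 0.064 (-0.25 to 0.36) and *Flt1* at -0.19 (-0.37 to -0.023). *Esm1* was at 27.7 CPM (WT) and 54.8 CPM (KO), 0.98 (0.26 to 1.64), and was past 2-fold without the members over 2%, at 1.25 (0.51 to 1.92). Of 20 BMP and TGF-beta genes, the signal transducer *Smad1* was past 2-fold lower (-1.06, -1.73 to -0.46; median of the list -0.33), and the targets *Id1*, *Id2* and *Id3* were at 0.66 (0.40 to 0.91), 0.86 (0.46 to 1.24) and 0.39 (0.21 to 0.56). Without the members over 2% they were at 0.98 (0.71 to 1.23), 0.097 (-0.51 to 0.65) and 0.64 (0.46 to 0.82). Notch and ephrin genes had 0 of 12 past 2-fold (median -0.44), and barrier and junction genes 0 of 18 (median -0.15). The tone and haemostasis list had 2 of 17 lower (median -0.40), among them nitric oxide synthase *Nos3* with 121 and 4 UMIs. The same *Nos3* UMIs were left without the members over 2%, where its ratio was -1.10 with an interval up to 0.30, and 0 genes of the list were past 2-fold by both criteria. Of 16 basement membrane and matrix genes, fibronectin *Fn1* was past 2-fold lower, at 52.4 and 12.5 CPM (median of the list -0.46), while *Col4a1* was at -0.54 (-0.69 to -0.39). Without the members over 2%, *Fn1* was no longer past 2-fold (-1.16, -3.05 to 0.24) and *Timp3*, an inhibitor of matrix proteases, was (-1.46, -2.06 to -0.92). Of 19 angiocrine genes, 1 (*Il33*) was higher and 1 (*Igf1*, 99 and 1 UMIs) lower, and of 15 injury genes 2 were lower, among them *Spp1* (medians -0.44 and -0.51). Without the members over 2% the injury list had 2 genes higher, *Esm1* and *Ankrd37*, and 1 lower, *Spp1* (median -0.16), and *Il33*, at 6 and 5 UMIs, fell under the 20 UMIs needed to be counted (3.56, 1.51 to 5.53). *Spp1* and *Igf1* are also macrophage genes, at 1093 and 79.3 CPM over all kept WT cells against 383 and 22.0 CPM in WT members.

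Of 17 antigen presentation genes, 4 were past 2-fold lower in KO and 0 higher (median -0.37), beside 3.61% of all tested genes lower and a median of -0.14. Leaving out the members over 2%, 6 of the 17 were lower (median -0.56), beside 2.47% of all tested genes and a median of -0.12. *H2-Eb1*, *H2-Aa* and *H2-Ab1*, the class II chains, were at -1.26 (-1.69 to -0.85), -0.75 (-1.06 to -0.47) and -0.92 (-1.24 to -0.62). *H2-Aa* (-1.31, -1.75 to -0.91), *H2-Ab1* (-1.16, -1.58 to -0.78) and the invariant chain *Cd74* (-1.37, -1.67 to -1.08, against -0.11, -0.27 to 0.050, in all members) were past 2-fold without the members over 2%. Class II genes mark antigen-presenting blood cells and AT2 cells too, and *H2-Ab1* was at 1341 CPM over all kept WT cells against 425 CPM in WT members. The peptide transporter *Tap1* was at 94.8 CPM in WT members and 59.3 CPM over all kept WT cells, with a log2 ratio of -1.34 (-2.19 to -0.60), and of -0.98 (-1.83 to -0.24) without the members over 2%. The class I genes *H2-K1* and *H2-D1* were at -0.11 (-0.25 to 0.016) and 0.23 (0.11 to 0.35). Without the members over 2% they were at 0.030 (-0.11 to 0.17) and 0.44 (0.31 to 0.57). There *H2-Q7* was at 0.52 (0.27 to 0.76) and *B2m* at -0.064 (-0.18 to 0.051). Among 24 interferon-stimulated genes, *Isg15* was past 2-fold higher, *Ifi27l2a* (97.9 and 27.4 CPM) and *Igtp* lower, and the median was -0.41. *Igtp*, without the members over 2%, was at -0.67 (-1.82 to 0.28). Of the 24, 6 lay above 0 and 18 below.

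Stress lists gave 0 of 19 immediate early and heat shock genes (median -0.055) and 1 of 17 p53 genes (median -0.28) past 2-fold, *Trp53inp1* lower at -1.01 (-1.93 to -0.21). *Cdkn1a*, the p53 target p21, was at 173 CPM (WT) and 102 CPM (KO) (-0.76, -1.25 to -0.30). Of 16 glycolysis and hypoxia genes, 0 were past 2-fold (median -0.17). In the replication list 1 of 14 genes was past 2-fold (median -0.10), *Pcna*, which was lower (43.9 and 19.9 CPM, -1.14, -2.37 to -0.13) on 198 and 8 UMIs, and not past 2-fold without the members over 2% (-0.69, -1.93 to 0.31). *Stmn1* was at 0.55 (0.29 to 0.80), *Mcm6* at 0.51 (-0.37 to 1.29) and *Ccnd1* at -0.066 (-0.36 to 0.21). Of 3 nuclear-retained RNAs 0 were past 2-fold (median 0.70, and -0.21 without the members over 2%). *Malat1* was at 6434 CPM (WT) and 12398 CPM (KO members) (0.95, 0.90 to 0.99), and was also higher over all kept KO cells (14355 CPM) than over all kept WT cells (8050 CPM).

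Genes of other vessels gave 1 large ratio on the higher side, which rested on the members rich in other RNA. *Car8*, a venous list gene, had 34 UMIs in WT and 36 in KO members, 7.54 and 89.7 CPM. Its log2 ratio was 3.57 (2.85 to 4.29), and its level in *Vwf*-positive cells was 86.5 CPM (WT) and 189 CPM (KO). Without the members over 2%, *Car8* had 31 and 3 UMIs (0.45, -1.90 to 2.13). *Nr2f2* was the other of 11 venous genes past 2-fold, on the lower side (median of the list -0.45). *Mgp*, of the arterial list, was at 1084 CPM (WT) and 399 CPM (KO members) (-1.44, -1.68 to -1.21), and was lower in KO aerocytes (244 CPM) than in WT aerocytes (817 CPM) as well. Over all kept cells, *Mgp* was at 3964 CPM (WT) and 5585 CPM (KO). It was the only one of 11 arterial genes past 2-fold, with a list median of -0.044, and stayed at -1.28 (-1.53 to -1.04) without the members over 2%. *Prx* and *Sirpa* of the aerocyte list were past 2-fold lower, with 837 and 35 UMIs and with 98 and 1 (2 of 11 genes, median -0.38). Leaving out the members over 2%, *Prx* was at -0.73 (-1.27 to -0.25) with 35 KO UMIs left, and *Sirpa* at -2.01 (-7.34 to 0.52) with 1. Of 5 lymphatic genes, *Ccl21a* was lower with 113 and 3 UMIs (median -1.37), but not past 2-fold without the members over 2% (-1.41, -3.71 to 0.17). Of 13 leukocyte adhesion and chemokine genes 0 were past 2-fold (median -0.27), of 10 gate genes 0 (median -0.43) and of 5 sex-linked genes 0 (median -0.34).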

How the data were processed

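The authors deposited UMI counts per gene and barcode for 1 WT and 1 KO 10x 3′ library (31053 genes, raw counts, not normalized). The matrix headers name Cell Ranger 5.0.0, the submitters' processing notes Cell Ranger 3.1.0 with STAR on GRCm38. The WT file held 98171818 UMIs on 30669 barcodes and the KO file 111267567 on 17172, and 16000 cells per group were stated as loaded. No barcode had fewer than 500 UMIs. Barcodes with more than 200 and fewer than 5000 genes and under 20% mitochondrial UMIs were kept. No doublet caller was run; the rule removes barcodes with *Ptprc*, *Col1a2* or *Epcam* UMIs, and an alternative leaves out the 10% of members with the most UMIs.

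UMIs were summed over the members of a library and divided by their total (CPM), with exact Poisson 95% intervals, exact conditional intervals for ratios and Clopper-Pearson intervals for shares. Where 1 sum was 0, the text gives counts and a bound at a floor of 3 UMIs; list medians take 0.5 UMIs added to both sums. Intervals cover counting error only, and no test was made with 1 library per genotype. No separate animals are known behind a library. Python 3.11.15, numpy 2.4.6, scipy 1.17.1 and, for TMM factors, edgeR 4.0.16 were used. Ratios, intervals and thinning were tested on simulated data.

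Named genes were the members of 30 lists, *Pclaf*, the 10 highest and 10 lowest ratios among genes with at least 50 UMIs, the same among genes at or above the level of all kept cells, the 15 highest over the other classes and the 12 most variable. Rule genes were left out of these rankings. Members and lists were chosen with earlier results of these data known. Of 420 listed genes, 419 were in the files. Promoter windows came from RefSeq (GRCm38.p6), the first window per gene. The text gives values for part of these genes; some are not reported here.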

Additional observations from a re-analysis of the deposited data

How the results depend on the processing

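The shares of kept cells in WT and KO were 6.74% and 0.870% with at least 3 of the 4 endothelial genes, 6.17% and 0.851% with *Gpihbp1* required, 4.05% and 0.691% with both *Gpihbp1* and *Plvap* required, 13.4% and 1.53% with up to 1 UMI allowed in the excluded genes, and 11.4% and 1.26% after thinning to 1000 UMIs before the rule. The KO share was below the WT share in each. Against 399 genes higher in KO, 193 were counted after thinning, 240 without the 10% of members with the most UMIs, 247 with at least 50 UMIs per gene, 612 by fold alone and 217 without the members over 2% epithelial or immune UMIs. Against 388 lower, 204 were counted after thinning, 254 without the deepest members, 751 with the mean of each cell's CPM, 783 at 1.5-fold and 1057 by fold alone. Higher genes made up 50.7% of those past 2-fold, and 36.2% with the mean of each cell's CPM, 38.9% with at least 50 UMIs, 36.7% by fold alone, 56.4% with the epithelial and immune lists left out of the denominator and 56.6% with at least 10 UMIs. Over 16 alternatives the median of the epithelial list ran from 2.01 to 3.77, of the immune list from -4.17 to -2.77, of the transcription factor list from -0.49 to -0.26 and of the general capillary list from -0.33 to -0.009. The blood list had the widest range, from -2.46 to 0.40, and the lymphatic list ran from -2.44 to -0.11. The arterial and immediate early medians changed sign in 5 alternatives each, the replication and pan-endothelial medians in 4 and the glycolysis median in 3. The median of the 3 nuclear-retained RNAs turned from 0.70 to -0.21 without the members over 2%. No paired analysis was possible because each genotype has 1 library and no test was made. Depth limits the KO side, where 400 tested genes had 0 UMIs. Whether the epithelial and immune UMIs of members came from free RNA or from doublets was not tested.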
